A study of Homo sapiens with 3 samples.

Results

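Bone morphogenetic protein (BMP) signalling and the inhibitor of differentiation (ID) genes were examined in DLD1 cells, an established line from a human colon cancer, through 10 genes chosen by symbol. They are the ligand BMP4, the secreted modulator TWSG1, the receptors BMPR1A and BMPR2, the signal transducers SMAD1 and SMAD5, the inhibitory SMAD6, and the targets ID1, ID2 and ID3. The choice was made with values from these arrays in view, so the differences given for these genes are descriptions. Of the 10 genes, 9 had a probe set under their own symbol, among 22465 genes so named on the array, and BMPR1A was not analysed here. Of those 9, 7 passed the minimum used to compare genes, a mean log2 signal of 5 over the 3 arrays, while ID3 and SMAD6 lay under it.

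The study asked how gene expression changes when H19, an imprinted long noncoding RNA, is depleted. DLD1 cells received siH19-1, siH19-2 or a control siRNA, each at 50 nM, and 500 ng of total RNA per sample went onto 1 array. The protocol states 48 hours of transfection and the design text 24 hours, and these sources do not settle which applied. All 3 arrays come from 1 cell line and no treatment has a replicate, so every difference below is between single arrays and has no error. Both siRNAs are set against the same control array.

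BMPs are secreted dimers that bring type I and type II serine/threonine kinase receptors together. The activated type I receptor phosphorylates SMAD1, SMAD5 and SMAD9, which join SMAD4 and enter the nucleus, where the ID genes are among their best known direct targets. In the colon, BMP signalling restrains stem cells of the crypt, and mesenchymal cells beneath the crypt base secrete antagonists such as gremlin and noggin.

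SMAD1 and SMAD5 are also reported targets of miR-675, the microRNA made from the first exon of H19, which is why they stand beside the ID genes. Its mature strands are shown because a target is recognised mainly through the seed. In the RefSeq sequences of build GRCh38.p14, the gene lies on the minus strand of chromosome 11, at chr11:1996800-1996822 for the 5p strand and chr11:1996768-1996787 for the 3p strand. Capitals mark the seed, bases 2 to 8 from the 5′ end, which the strands do not share.
hsa-miR-675-5p: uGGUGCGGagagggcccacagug
hsa-miR-675-3p: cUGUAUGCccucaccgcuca

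The targeted transcript was read by 1 probe set, which the annotation gives to H19 and to MIR675 alike. It had a log2 signal of 7.74 with siH19-1 and 7.37 with siH19-2, against 7.88 with control siRNA. The signal was thus lowest with siH19-2, and neither difference (-0.14 and -0.51) reached 1.5-fold on the deposited scale. After median centring, under which the median siH19-2 difference of all compared genes was -0.17 in place of -0.07, the siH19-2 difference was -0.61 and did reach it. After quantile normalization (-0.47) and cyclic loess (-0.48) the siH19-2 difference stayed under 1.5-fold. The 67528 probe sets of an array had median log2 signals of 3.53 (siH19-1), 3.57 (siH19-2) and 3.47 (control).

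Epithelial markers were bright, and nearly all markers of other lineages were under the minimum, where a gene cannot be called present or absent. Among colon epithelial markers 7 of 11 passed the minimum, led by the keratins KRT8 (15.64, 15.26 and 15.46 with siH19-1, siH19-2 and control) and KRT18 (15.26, 14.99 and 15.26). The adhesion molecule EPCAM read 14.70 with siH19-1 and 13.02 with siH19-2, against 14.74 with control, and E-cadherin (CDH1) read 12.10 and 12.23, against 10.27. The cadherin CDH17 differed from control by 0.17 and 0.62. KRT19 (10.41, 10.33 and 10.13) and CDX2 (8.02, 7.99 and 7.80) passed the minimum as well. The other colon markers listed, KRT20, CDX1, VIL1 and LGALS4, lay under it. Of 10 measured fibroblast and mesenchymal markers 0 passed, with values of 2.73 to 4.24, and of 9 leukocyte and endothelial markers only CD68, a macrophage gene also made at low level by other cells, did (5.85, 5.98 and 5.95). Fewer cells of a type and less RNA per cell cannot be told apart in RNA from whole cultures.

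ID1 and ID2 were the members that differed most with siH19-2. ID proteins are helix-loop-helix proteins without a DNA-binding region, and they hold E proteins off their sites on DNA. ID1 had a log2 signal of 6.41 with siH19-1 and 4.75 with siH19-2, against 7.18 with control. Both siRNA arrays lay below the control array, and the siH19-2 value was itself under the minimum, which ID1 passed on its mean of 6.11. The differences were -0.77 and -2.43, which put the signal at 58.6% and 18.6% of control. With siH19-2, 10 of 9630 compared genes had a deeper decrease than ID1, and with siH19-1, 109 had one. Among the 1890 compared genes within 0.5 log2 units of its mean, differences had an SD of 0.227 with siH19-1 and 0.32 with siH19-2, a spread between genes that includes any true changes.

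ID2 had 7.40 with siH19-1 and 6.50 with siH19-2, against 7.71 with control. The order of the 3 arrays was the same as for ID1, with differences of -0.31, which is under 1.5-fold, and -1.21, or 43.2% of control. Its neighbours in signal had SDs of 0.259 and 0.37, so the siH19-1 difference was close to their spread. ID3 read 4.15 with siH19-1 and 3.80 with siH19-2, against 4.47 with control. This is again the same order, at differences of -0.32 and -0.67, but so low a signal cannot be called present or absent here. ID4, the remaining family member, read 3.07 and 3.02, against 2.91.

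The comparison of siH19-1 with siH19-2 does not use the control array. ID1 was 1.66 log2 units higher with siH19-1 than with siH19-2, and 42 of 9630 genes had a larger such difference. ID2 was 0.90 higher and ID3 0.35 higher. ID1 and ID2 were the 2 members of 7 that differed at least 1.5-fold between the siRNAs, both higher with siH19-1; of all compared genes 5.7% were higher and 2.51% lower by that much.

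**Figure D1:**
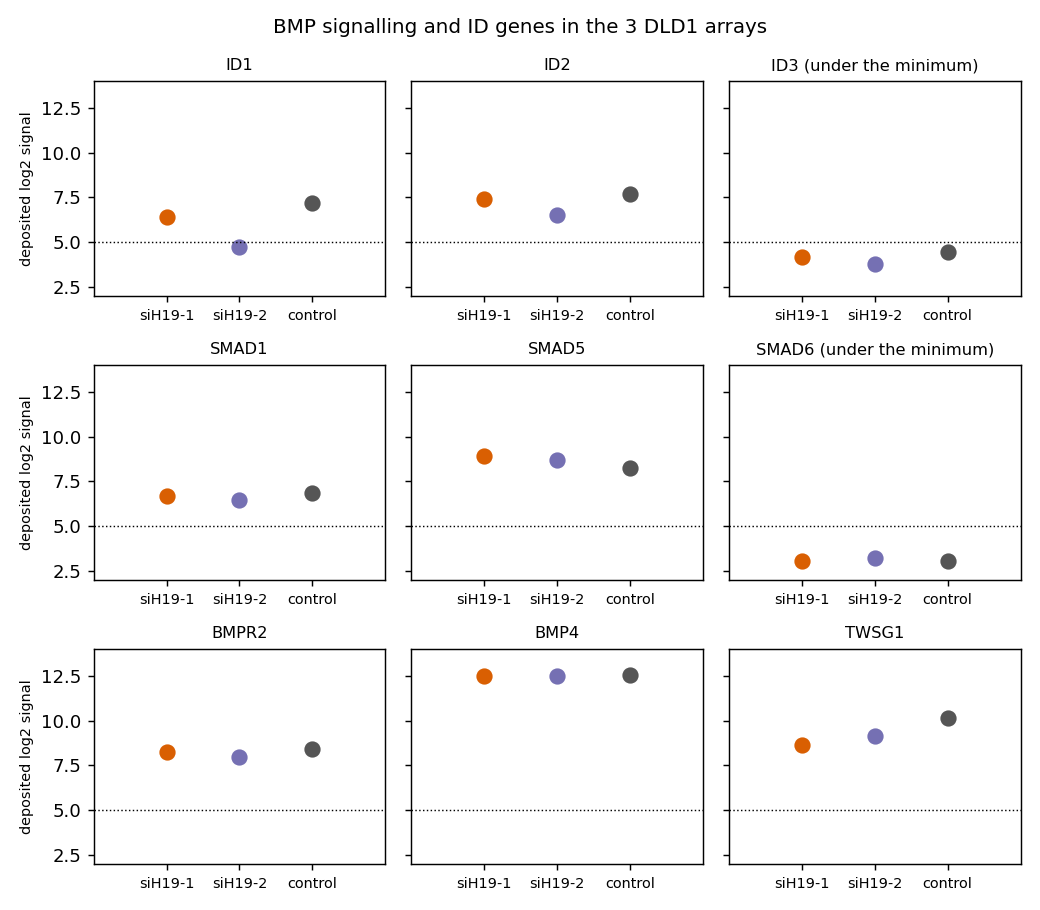
Deposited log2 signal (vertical axis) of the 9 measured genes in the siH19-1, siH19-2 and control arrays, 1 point per array and no error bars because there are no replicates; the dotted line marks the minimum of 5. ID1, ID2 and ID3 are each lowest with siH19-2 and highest with control, TWSG1 is lowest with siH19-1, SMAD5 is lowest with control, and BMP4 lies between 12.50 and 12.54.

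ID1, ID2 and ID3 each read below control with both siRNAs. Only ID1 reached 1.5-fold with both, and ID3 lay under the minimum. The 300 bases around their RefSeq start sites (250 before and 50 after, GRCh38.p14) are shown for description. Beside them stand those of SMAD6, another direct BMP target, whose signal was under the minimum. Capitals mark the SMAD box GTCT, read on either strand, so that AGAC is capitalised too. ID1 lies at chr20:31605039-31605338 on the plus strand, ID2 at chr2:8681806-8682105 on the plus strand, ID3 at chr1:23559452-23559751 on the minus strand, and SMAD6 at chr15:66701986-66702285 on the plus strand.
ID1: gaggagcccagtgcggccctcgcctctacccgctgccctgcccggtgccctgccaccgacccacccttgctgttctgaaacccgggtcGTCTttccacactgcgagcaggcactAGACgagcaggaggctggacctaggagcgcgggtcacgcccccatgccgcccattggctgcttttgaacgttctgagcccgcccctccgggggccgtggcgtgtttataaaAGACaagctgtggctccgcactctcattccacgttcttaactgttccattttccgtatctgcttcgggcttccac
ID2: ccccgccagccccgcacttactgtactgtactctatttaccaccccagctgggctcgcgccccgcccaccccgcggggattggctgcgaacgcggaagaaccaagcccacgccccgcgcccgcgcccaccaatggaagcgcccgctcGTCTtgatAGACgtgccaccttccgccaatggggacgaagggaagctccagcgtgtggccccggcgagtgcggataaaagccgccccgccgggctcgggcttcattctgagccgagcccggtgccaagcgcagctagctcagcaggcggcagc
ID3: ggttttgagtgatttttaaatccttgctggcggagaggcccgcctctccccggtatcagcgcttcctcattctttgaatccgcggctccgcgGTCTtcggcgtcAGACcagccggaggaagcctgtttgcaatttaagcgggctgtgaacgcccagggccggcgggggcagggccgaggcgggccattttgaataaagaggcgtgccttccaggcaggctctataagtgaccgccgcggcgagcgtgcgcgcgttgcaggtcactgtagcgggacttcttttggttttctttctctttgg
SMAD6: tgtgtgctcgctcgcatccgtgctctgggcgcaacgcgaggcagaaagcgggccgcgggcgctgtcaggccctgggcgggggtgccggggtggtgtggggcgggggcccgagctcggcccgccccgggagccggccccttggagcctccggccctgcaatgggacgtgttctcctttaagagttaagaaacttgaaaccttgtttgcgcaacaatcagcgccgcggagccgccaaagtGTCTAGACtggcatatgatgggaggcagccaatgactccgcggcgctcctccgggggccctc

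The windows held 3 (ID1), 2 (ID2), 2 (ID3) and 2 (SMAD6) SMAD boxes, a motif found in 84.0% of the 35116 RefSeq windows of this length. The 2 boxes of SMAD6 form the palindrome GTCTAGAC, which 0.202% of all windows hold and which the 3 ID windows lack. GGCGCC, a GC-rich element bound by SMAD1 and SMAD5 and its own reverse complement, stands in 19.2% of windows and in none of these 4. Among the other measured genes, windows of SMAD1, SMAD5, BMPR2 and BMP4 hold it. GGCGCC followed after 5 bases by GTCT, searched on both strands and overlapping the shorter motifs, stands in 0.103% of windows and in 0 windows of the 9 measured genes. The letters of these windows say nothing about elements that lie farther from the start site.

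TWSG1 was the member that differed most with siH19-1. It encodes twisted gastrulation, a secreted protein that binds BMPs and chordin and can either strengthen or release the block on the ligand. Its log2 signal was 8.66 with siH19-1 and 9.15 with siH19-2, against 10.14 with control. Both siRNA arrays lay below control, with siH19-1 the lower, the opposite of the order seen for the ID genes. The differences of -1.48 and -0.99 correspond to 35.8% and 50.3% of control, and 13 and 252 of the 9630 genes lay deeper. Differences of the 1083 genes of like signal had SDs of 0.316 and 0.469. Between the siRNAs TWSG1 differed by -0.49, under 1.5-fold.

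The ligand BMP4 read 12.50 with siH19-1 and 12.50 with siH19-2, against 12.54 with control. The 3 arrays were within 0.04 log2 units of each other, and the difference from control had no steady sign across scalings (siH19-1 at 0.01 after cyclic loess, siH19-2 at 0.02 after quantile normalization). BMP4 was the 1 gene of 14 BMP ligands above the minimum. The other 13, including BMP2 (4.62, 4.50 and 4.81 with siH19-1, siH19-2 and control), lay between 2.52 and 4.90 in every array.

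Among the receptors, BMPR2, the type II receptor devoted to BMPs, had 8.25 with siH19-1 and 7.95 with siH19-2, against 8.42 with control. Both differences (-0.17 and -0.47) were below 0 and under 1.5-fold, the first within and the second near the SDs of genes of like signal, 0.311 and 0.432. The type II receptor ACVR2A, shared with activins, read 8.48 and 8.31, against 8.50. The type I receptors ACVR1 (5.93 and 6.01, against 5.93) and BMPR1B (5.75 and 5.80, against 5.75) were within 0.1 of control. Thus 4 of 10 measured receptors and co-receptors passed the minimum and 0 of those 4 differed 1.5-fold with either siRNA. Of all compared genes, 2.63% were lower and 1.58% higher by that much with siH19-1, and 8.95% and 2.94% with siH19-2.

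SMAD1 and SMAD5, whose proteins are close relatives with overlapping roles, lay on opposite sides of control. SMAD5 had a log2 signal of 8.94 with siH19-1 and 8.70 with siH19-2, against 8.26 with control. Both siRNA arrays were higher, by 0.68 (160.2% of control) and 0.44 (136% of control), and 1.5-fold was passed with siH19-1 alone. With siH19-1, 90 of 9630 genes were higher by more, and 536 were with siH19-2. Genes of like signal had SDs of 0.317 and 0.453, so the siH19-2 value was within the spread of single genes. SMAD1 read 6.69 and 6.48, against 6.83, differences of -0.14 and -0.35 that are under 1.5-fold, the first within and the second close to the neighbours' SDs of 0.241 and 0.345.

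Of the rest of the SMAD family, the common partner SMAD4 (9.31 and 9.34, against 9.38) and the TGF-beta transducers SMAD2 (9.80 and 9.84, against 9.84) and SMAD3 (6.95 and 6.95, against 7.14) were within 0.2 of control. SMAD7, which inhibits both branches, read 6.32 and 5.94, against 6.26. SMAD6, the inhibitor that acts mainly on the BMP branch, read 3.05 and 3.20, against 3.04, and SMAD9 3.58 and 3.61, against 3.54, both under the minimum. The family therefore had 1 of 6 compared genes past 1.5-fold, SMAD5 with siH19-1, where 1.58% of all compared genes were higher.

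Counted over the 7 members compared, 2 were lower with siH19-1 (ID1 and TWSG1), where 2.63% of all compared genes were, and 1 was higher (SMAD5), where 1.58% were. With siH19-2, 3 were lower (ID1, ID2 and TWSG1), beside 8.95% of all genes, and 0 were higher, beside 2.94%. ID1 and TWSG1 were lower with both siRNAs, as were 1.09% of all genes, and 0 members were higher with both, as 0.685% were. The members were picked with these differences known, and a deviation of the 1 control array would move both siRNA columns, so nothing is read from these counts against their backgrounds. The median difference of the 7 was -0.17 with siH19-1 and -0.47 with siH19-2, beside -0.06 and -0.07 over all compared genes.

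**Figure D2:**
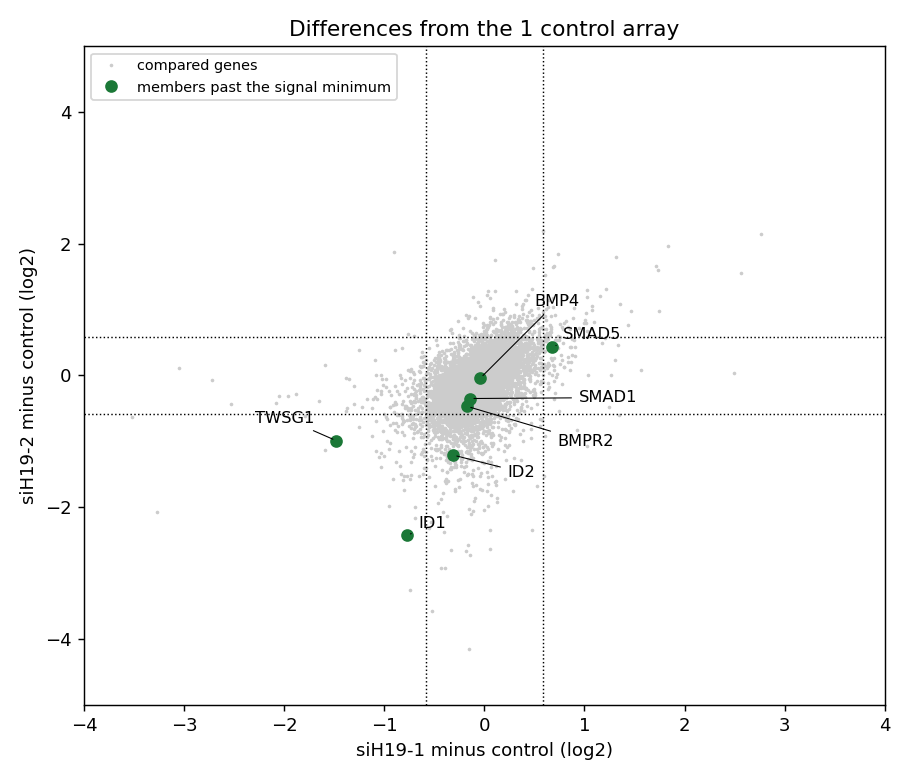
Difference from the control array in log2 units with siH19-1 (horizontal axis) and siH19-2 (vertical axis) for the 9630 compared genes (grey) and the 7 members past the minimum (green), with dotted lines at 1.5-fold. ID1 lies far down the siH19-2 axis, TWSG1 farthest left of the 7 members on the siH19-1 axis, and SMAD5 is the 1 member above 0 on both; the axes share the control array, so the slant of the cloud is no measure of agreement.

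The wider pathway was set out in 7 overlapping lists of ligands, secreted antagonists, receptors, SMADs, intracellular regulators, reported targets, and ID genes with E proteins. They hold 86 genes, of which 81 had a probe set of their own and 36 passed the minimum. With siH19-1, 4 of the 36 were lower and 1 was higher, beside 2.63% and 1.58% of all compared genes. With siH19-2, 5 were lower and 0 higher, beside 8.95% and 2.94%. These counts include the members, picked with their values known. Without the members, 29 compared genes remained, with 2 lower with each siRNA, 0 higher with either and 0 lower with both. Their median differences, -0.07 and -0.07, were near those of all genes.

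The 4 further genes called stand on the list of intracellular regulators, and no ligand or secreted antagonist other than BMP4 and TWSG1 was compared. SMURF2, a ubiquitin ligase that brings about degradation of SMADs and receptors, was lower with siH19-1, at 9.39 with siH19-1 and 10.14 with siH19-2, against 10.42 with control (-1.03 and -0.28). BAMBI, a decoy receptor without a kinase, read 7.81 and 8.71, against 8.41. It was below control with siH19-1 (-0.60) and above it with siH19-2 (0.30), and the first value passed 1.5-fold narrowly and did not after quantile normalization or cyclic loess (-0.55 in each). CTDSPL, a small phosphatase of the family that acts on SMADs, was lower with siH19-2, at 10.02 and 9.14, against 10.17 (-0.15 and -1.03). USP15, a deubiquitinase of receptor-activated SMADs, likewise read 10.42 and 9.79, against 10.61 (-0.19 and -0.82).

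The other intracellular regulators were under 1.5-fold with both siRNAs as deposited. The kinase MAP3K7, which carries SMAD-independent BMP signals, read 9.98 and 10.20, against 10.09, and the ubiquitin ligase SMURF1 7.09 and 7.06, against 7.17. The phosphatase CTDSP2 was below control with both siRNAs (-0.53 and -0.43), and reached 1.5-fold with siH19-1 after median centring (-0.59). In this list 18 of 19 measured genes passed the minimum, and medians were -0.16 and -0.04.

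Secreted antagonists were under the minimum, apart from TWSG1. Of 13 measured, 12 lay between 2.86 and 4.03 in every array, among them noggin (NOG, 2.87 and 2.87, against 2.92), gremlin (GREM1, 3.41 and 3.48, against 3.43) and chordin (CHRD, 3.60 and 3.64, against 3.60). CER1, an antagonist of BMP and nodal known from embryos, differed by -0.51 and -0.35 at a signal of at most 3.60.

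Most other reported BMP targets lay closer to control than ID1 and ID2. With siH19-1, however, BAMBI (-0.60) and JUNB (0.36) lay farther from control than ID2 (-0.31). Of 22 listed targets 8 passed the minimum, and besides ID1, ID2 and BAMBI none of them differed 1.5-fold from control. With each siRNA 2 of the 8 were lower, beside 2.63% (siH19-1) and 8.95% (siH19-2) of all compared genes. With each siRNA 0 were higher, beside 1.58% and 2.94%. MSX2, a homeobox gene, read 5.37 and 4.99, against 5.34, RUNX2, a Runt-domain factor of bone, 6.85 and 6.68, against 6.77, and JUNB, an AP-1 subunit, 6.24 and 5.76, against 5.88. ATOH8 (3.28 and 3.29, against 3.26) and HEY1 (2.97 and 2.91, against 2.85) were under the minimum. The list's medians were -0.02 and -0.22.

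E proteins, the partners that ID proteins bind, differed by less than ID1. TCF12 read 9.51 with siH19-1 and 9.09 with siH19-2, against 9.45 with control, and TCF3 7.36 and 7.19, against 7.35. Neither reached 1.5-fold (TCF12 at 0.06 and -0.36, TCF3 at 0.01 and -0.16). TCF4 was under the minimum at 3.57 and 3.51, against 3.55.

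**Figure D3:**
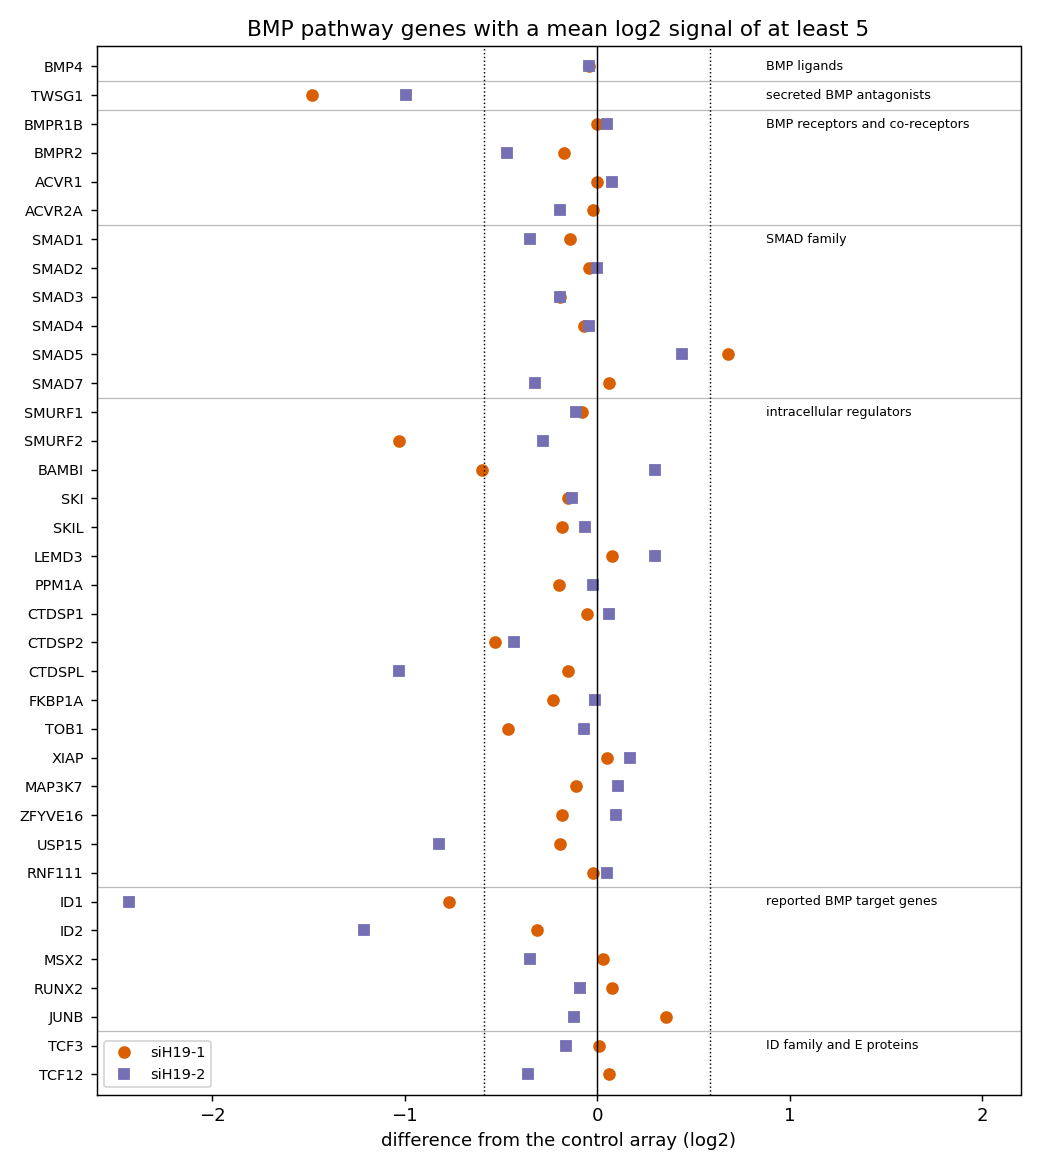
Difference from the control array in log2 units (horizontal axis) with siH19-1 (circles) and siH19-2 (squares) for the 36 BMP pathway genes past the minimum, ordered by role, each shown once under its first list; dotted lines mark 1.5-fold and there are no error bars because there are no replicates. Most genes lie between the lines, and those outside are TWSG1, SMAD5, SMURF2, BAMBI, CTDSPL, USP15, ID1 and ID2.

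In the TGF-beta and activin branch, which uses other receptors and SMAD2 and SMAD3, 10 of 18 measured genes passed the minimum. With siH19-1, 0 of these were lower or higher by 1.5-fold, beside 2.63% lower and 1.58% higher of all compared genes. With siH19-2, 3 were lower and 0 higher, beside 8.95% and 2.94% of all compared genes. The co-receptor TGFBR3 read 8.49 and 8.93, against 8.36, and its siH19-2 difference of 0.57 passed 1.5-fold after quantile normalization (0.66) and cyclic loess (0.62). The 3 lower genes encode ligands or a ligand subunit. TGFB2 read 8.82 with siH19-1 and 8.01 with siH19-2, against 9.08 with control, TGFB1 6.78 and 6.14, against 7.01, and INHBB, a subunit of activin B, 5.29 and 4.88, against 5.63. The siH19-2 value of INHBB was itself under the minimum. All were below control with siH19-1 as well, by less (-0.26, -0.23 and -0.34). The receptor TGFBR2 read 9.61 and 9.44, against 9.47. Medians over the 10 genes were -0.16 and -0.04.

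Among 13 reported miR-675 targets, 8 of 11 measured passed the minimum. SMAD5 was the 1 higher with siH19-1, and the growth factor receptor IGF1R, at 6.10 and 5.79, against 6.41, was the 1 lower with siH19-2 (-0.62). Of all compared genes, 1.58% were higher with siH19-1 and 8.95% lower with siH19-2 by 1.5-fold. The retinoblastoma gene RB1 (11.35 and 10.77, against 11.25), the replication licensing gene CDC6 (10.49 and 10.28, against 10.39) and NOMO1 (12.07 and 12.13, against 12.29) were under 1.5-fold with both. The medians of the 8 were 0.04 and -0.21, so SMAD5 and SMAD1 lay on either side of a list with no common direction with siH19-1. With siH19-2, SMAD1, CDC6, RB1, IGF1R, TGFBI and NOMO1 were below control, and SMAD5 and HDAC6 above it.

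The genes whose pair of differences lay nearest to that of ID1, by Euclidean distance over the 2 comparisons, were the Mediator kinase CDK8 (-0.55 and -2.32, distance 0.246), RACGAP1, needed for cytokinesis (-0.69 and -2.17, distance 0.272), and cyclin F, CCNF (-0.53 and -2.22, distance 0.319). Nearest to TWSG1 were NETO2, which assists kainate receptors (-1.59 and -1.13, distance 0.178), the small nucleolar RNA SNORA52 (-1.25 and -0.79, distance 0.305) and the prion protein gene PRNP (-1.12 and -0.92, distance 0.367). A likeness over 3 arrays is a description of these arrays.

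The members' values moved little with the scaling of the arrays. ID1 with siH19-1 lay between -0.83 (median centring) and -0.73 (quantile normalization), and with siH19-2 between -2.53 and -2.43. TWSG1 lay between -1.54 and -1.43 with siH19-1 and between -1.09 and -0.90 with siH19-2. SMAD5 was above control under each scaling tried, at 0.62 to 0.73 with siH19-1 and 0.34 to 0.54 with siH19-2.

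**Figure D4:**
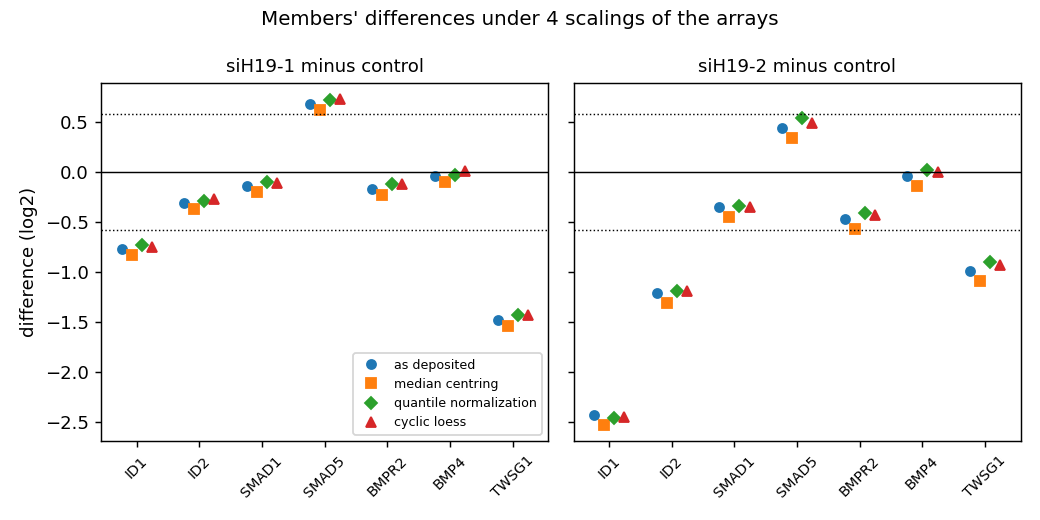
Difference from control in log2 units (vertical axis) of the 7 compared members with siH19-1 (left) and siH19-2 (right) as deposited and after each of 3 rescalings (median centring, quantile normalization, cyclic loess); dotted lines mark 1.5-fold. The 4 symbols of a gene lie close together, and in either panel no member changes its side of a dotted line between scalings. BMPR2 with siH19-2 reaches -0.57 after median centring.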

How the data were processed

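Whole-transcript Affymetrix arrays had been hybridised with labelled RNA of DLD1 cells, 1 array for each of 3 treatments. Per the submitters' processing notes, the authors made the deposited log2 values with Affymetrix Expression Console and RMA, which corrects background, normalizes the arrays to each other and combines the probes of a set. Values reach 19.93, above the log2 ceiling of 16 bits, so a further transformation is possible. Probe sets were named from the platform's annotation, which gave 1 symbol to 23781 of 67528. The probe set with the highest mean stood for a gene, and 9630 of 22465 genes had a mean log2 signal of at least 5. With 1 array per treatment no p-value was computed, and a gene was called at 1.5-fold (0.585 on the log2 scale). Precision is limited by the number of arrays. The members, gene lists and rules were chosen with earlier results of these data known. Besides the members, genes were named where they passed 1.5-fold, were the brightest of a list, or were chosen by name. Those chosen by name include genes under 1.5-fold or under the minimum, such as MSX2, JUNB, ATOH8, NOG and BMP2. Alternatives were 3 scalings, 2 signal minimums, the mean of probe sets and a threshold of 2-fold. The computations used Python 3.11.15, numpy 2.4.6, pandas 2.3.3, matplotlib 3.10.9 and limma 3.58.1 (cyclic loess) in R 4.3.3, and were tested on simulated data.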

Additional observations from a re-analysis of the deposited data

How the results depend on the processing

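No paired analysis was possible because each treatment has 1 array and the labels carry no replicate numbers. Median centring, quantile normalization and cyclic loess changed none of the counts of members past 1.5-fold. The counts over all compared genes did move. Genes lower with siH19-2 went from 862 as deposited to 1199 with medians centred, 734 by quantiles and 780 by loess. In the same order, genes lower with both siRNAs numbered 105, 175, 76 and 77, and genes higher with siH19-1 152, 107, 172 and 187. The background of the member counts thus depended on the scaling. The mean of all probe sets of a gene left the members' differences as they were, so it could not change the counts of members. With a signal minimum of 7, ID1 is left out: 1 member was then lower with siH19-1, 2 with siH19-2, 1 with both siRNAs, and 1 differed between the siRNAs. With a threshold of 2-fold, 1 member was lower with siH19-1 (TWSG1), 2 with siH19-2 (ID1 and ID2), 0 with both, 0 were higher with siH19-1, and 1 differed between the siRNAs (ID1). In the 36 pathway genes the count lower with siH19-1 was 3 after quantile normalization or cyclic loess (without BAMBI) and 5 after median centring (with CTDSP2), and a threshold of 2-fold left 2 lower and 0 higher with siH19-1 and 3 lower with siH19-2. The shares of all genes at a minimum of 7 or at 2-fold are not given here. Nothing is therefore read from the counts at those settings. Of 147 differences of members listed over all alternatives, 142 kept their side of the threshold and 0 called ones turned sign. Only the 3 scalings gave new values. The other alternatives repeated the deposited differences, so no sign could turn there. With no signal minimum ID3 passes 1.5-fold with siH19-2 (-0.67). Of the genes called, the share higher was 37.5% with siH19-1 and 24.7% with siH19-2, against 23.2% and 13.4% after median centring and 47.8% and 28.9% after cyclic loess. Detection calls were not used, so a dim gene cannot be called absent. Several list medians rest on few genes past the minimum.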
